A study of Arabidopsis thaliana with 18 samples.

Results

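Messenger RNA levels were compared between the end of the night and its start in SOB3-D seedlings of Arabidopsis thaliana. The comparison took the 3 SOB3-D libraries harvested at ZT24 (at dawn, hours counted from lights on) and the 3 SOB3-D libraries harvested at ZT9, chosen by genotype and time point alone, so 6 of the 18 libraries of the series were its members. SOB3-D is a Col-0 line with an activation tag that overexpresses SOB3, also called AHL29, a DNA-binding protein of the AT-hook family that restrains the elongation of the seedling stem (hypocotyl). The other genotype of the series, sob3-6, carries a changed form of the same overexpressed copy that acts in a dominant-negative way, and wild-type seedlings were not analysed here. All seedlings grew at 22 °C on medium with 1% sucrose in short days of 8 h light and 16 h dark. At ZT9 they were 5 days old and had been dark for 1 h, and at ZT24 they were 6 days old and had been dark for 16 h. Clock time, time in the dark and age therefore cannot be told apart in this comparison. Each library pooled 20 to 35 whole seedlings, with the replicates of a time point on different plates, so a lower level of a transcript may mean less RNA per cell or fewer cells of a type, and these cannot be told apart.

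The plant circadian clock is a set of transcription factors that repress or activate each other at different times of day, and its morning and evening members peak in opposite phases. Clock and light signals meet at the PIF proteins, basic helix-loop-helix factors that light destabilises through the phytochromes and that drive hypocotyl growth at the end of a long night. Leaves fill with starch in the day and use it in the night, so the genes for photosynthesis and starch turnover also follow a daily rhythm.

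Levels are given in CPM, the reads counted on a transcript scaled to the mapped reads of its library, and each gene is shown by its most abundant transcript. Change means the log2 fold change, ZT24 over ZT9, on the log2(CPM + 0.5) scale, and is given with its standard error (SE). Adjusted p-values are from limma's moderated test over all transcripts that averaged 0.5 CPM or more, and genes with an adjusted p under 0.05 are said to have risen or fallen. Of 20451 nuclear genes tested, 3767 rose (18.4%) and 4018 fell (19.6%), so that 38.1% moved in either direction, and 909 (4.44%) and 1144 (5.59%) did so by at least 1 on the log2 scale. The median change of all tested genes was 0.026, and in 10128 genes (49.5%) the ZT24 and ZT9 libraries did not overlap. Mapped reads ranged from 7125488 to 8072465 at ZT9 and from 7922923 to 9757263 at ZT24, and organelle transcripts took 0.999% to 1.19% of the signal. SOB3 itself read 157, 144 and 133 CPM at ZT9 and 211, 235 and 212 CPM at ZT24. The overexpressed gene was thus high in all 6 libraries and rose by 0.60 (SE 0.08, adjusted p = 0.000271). Root marker genes, of which 1 of 7 rose and 2 fell, summed to 148 to 169 CPM at ZT9 and 148 to 168 CPM at ZT24. None of 3 guard cell and 6 vascular marker genes passed the test in limma, edgeR or DESeq2 (0 and 1 at an unadjusted p under 0.05), whereas the green shoot markers, of which 3 of 5 rose and 1 fell, summed to 25790 to 33343 and 42815 to 44322 CPM. All 6 seed storage genes together read 30.9 to 105 CPM at ZT9 and 98 to 173 CPM at ZT24, almost wholly CRA1 and CRU3. The part of these markers in the results was not tested.

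The morning genes of the clock had the largest median change of the lists. Of the 11 MYB and LNK genes tested, 10 rose and none fell in limma, edgeR or DESeq2 (1 fell at an unadjusted p under 0.05), with a median change of 5.64. LHY read 0.991, 0.561 and 1.03 CPM at ZT9 and 659, 567 and 532 CPM at ZT24. CCA1, its close partner as a repressor of evening genes, read 0.372, 0.421 and 0 CPM at ZT9 and 306, 240.3 and 228 CPM at ZT24. Both went from the detection limit, with 20 and 6 reads in the 3 ZT9 libraries, to 228 CPM or more at dawn, with changes of 8.76 (SE 0.15, adjusted p = 1.8e-10) for LHY and 8.44 (SE 0.23, adjusted p = 1.83e-09) for CCA1. These were the largest rises on this scale, but their order depends on the 0.5 CPM added, since edgeR gave 9.35 for LHY and 9.84 for CCA1.

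The LNK coactivators and the activating REVEILLE factors rose with them. LNK2 read 4.96, 6.74 and 5.02 CPM at ZT9 and 1080.4, 982 and 939.5 CPM at ZT24, a change of 7.38 (SE 0.11, adjusted p = 1.8e-10). RVE8, which activates evening genes, read 0.867, 0.702 and 1.03 CPM at ZT9 and 112, 91.9 and 88.5 CPM at ZT24, a change of 6.17 (SE 0.15). In both genes every dawn library lay far above every evening one. LNK3 (6.63), LNK4 (5.64), RVE4 (3.86), RVE1 (3.6), which joins the clock to auxin, and LNK1 (2.74) rose as well. RVE7 rose by 1.36 (SE 0.13, adjusted p = 1.77e-05), but 45.5% of its 84-base stretches also occur in AT3G10113, so its reads cannot be placed with certainty. RVE2 read 29.1, 33.1 and 36.3 CPM at ZT9 and 31.0, 20.6 and 26.4 CPM at ZT24, and its groups overlapped (adjusted p = 0.0935, and 0.0277 for a fall without ZT24 replicate 1). Of the 11 genes it alone did not rise.

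The times of day differed among the risers when the 3 ZT4 libraries of SOB3-D (5 days old, in the light) were set beside them. LHY was at 17.5 ± 4.83 CPM (SD, n = 3) at ZT4, CCA1 at 66.4 ± 14.4 and RVE8 at 12.5 ± 2.93, so these were highest at ZT24 and lowest at ZT9. LNK1, at 158 ± 17.62 CPM, and RVE7, at 65.3 ± 11.9, were higher at ZT4 than in any ZT24 library. These ZT4 values are descriptions, with no test.

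The promoters of this list share a sequence that the choice of libraries did not use. The G-box (CACGTG, its own reverse complement), the site bound by many basic helix-loop-helix and bZIP factors, occurred in 8 of the 11 promoters, taken as 250 bases before to 50 after the start, against 6.46% of all 37897 RefSeq promoters and 8.85% of the 20372 promoters of tested genes. Of all 2449 promoters with a G-box, 1327 also hold the overlapping ABA element (ACGTGG, on both strands). The G-box windows are printed for the dawn-high genes that hold one, and for RVE2, which did not rise. They are RefSeq sequences of the TAIR10.1 assembly, read along the gene, with the G-box in capitals.
LHY (chr1:37934-37962, minus strand): tacaatatcacCACGTGtcgatctgcgat
CCA1 (chr2:19245387-19245415, plus strand): agtgtatcagaCACGTGtcgacaaactgg
RVE8 (chr3:2946239-2946267, plus strand): ctacaagtctaCACGTGcttcaagcttga
LNK3 copy 1 (chr3:3923333-3923361, plus strand): taatcacatgcCACGTGtcttattctcca
LNK3 copy 2 (chr3:3923363-3923391, plus strand): aaagagagtgtCACGTGtgcctagatatc
LNK2 (chr3:20179029-20179057, minus strand): cactcgtttggCACGTGaccatttcatac
RVE1 (chr5:5693086-5693114, minus strand): agaaagagcgaCACGTGgcaaagatggac
RVE2 (chr5:14753234-14753262, minus strand): aagaaatcctcCACGTGtcattagcatct
LNK1 (chr5:25676808-25676836, minus strand): gatttagttgcCACGTGttgatatcatgg
The G-box of LHY starts 80 bases before the gene's start and that of CCA1 193 bases before it. Those of RVE8 and LNK2 lie just after the start, at bases 12 and 25 of the transcript. A match is a description of the letters, not a measured binding site.

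The evening loop moved the other way. Of 14 PRR and evening clock genes, 10 fell, 1 rose and 3 did not pass the test, with a median change of -2.62. ELF4, a member of the evening complex that represses growth genes at dusk, read 77.2, 77.3 and 81.1 CPM at ZT9 and 0.505, 0.609 and 0.410 CPM at ZT24. It fell by 6.30 on the log2 scale (SE 0.14, adjusted p = 7.95e-10), to 13 reads in the 3 dawn libraries. LUX, the DNA-binding member of that complex, read 119.5, 118 and 118 CPM at ZT9 and 5.93, 6.82 and 6.87 CPM at ZT24. The third member, ELF3, read 113, 116 and 119 CPM at ZT9 and 35.0, 29.7 and 30.8 CPM at ZT24. All members of the complex were thus lower in every dawn library, with a change of -1.85 (SE 0.08) for ELF3 and of -4.08 (SE 0.09) for LUX.

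Falls among the other evening genes covered F-box proteins and pseudo-response regulators. FKF1, a blue-light receptor that removes repressors of flowering, read 51.4, 58.7 and 55.6 CPM at ZT9 and 0.757, 1.22 and 0.717 CPM at ZT24. TOC1, the evening repressor of CCA1 and LHY, read 265, 238 and 260.0 CPM at ZT9 and 22.1, 27.4 and 24.7 CPM at ZT24. Neither gene's groups overlapped, and the changes were -5.33 (SE 0.17) and -3.34 (SE 0.09). PRR3 (-5.16), PRR5 (-4.18), BOA, a close relative of LUX (-3.168), GI (-2.08) and PRR7 (-1.29) fell as well. Of BOA, 40.2% of the 84-base stretches are shared with its neighbour AT5G59580 on either strand, and of LUX 13.4% with AT3G46650. The exception was PRR9, the first of the PRR genes to be expressed in a day, which read 1.61, 1.82 and 0.901 CPM at ZT9 and 9.84, 9.13 and 7.17 CPM at ZT24. It rose by 2.27 (SE 0.24, adjusted p = 3.54e-05) and stood at 76.0 ± 9.51 CPM (SD, n = 3) at ZT4, and 24.9% of its 84-base stretches are shared with AT2G46670. ZTL, LKP2 and CHE did not pass the test, with changes of 0.06 (SE 0.08), 0.11 (SE 0.11) and -0.22 (SE 0.14).

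**Figure D1:**
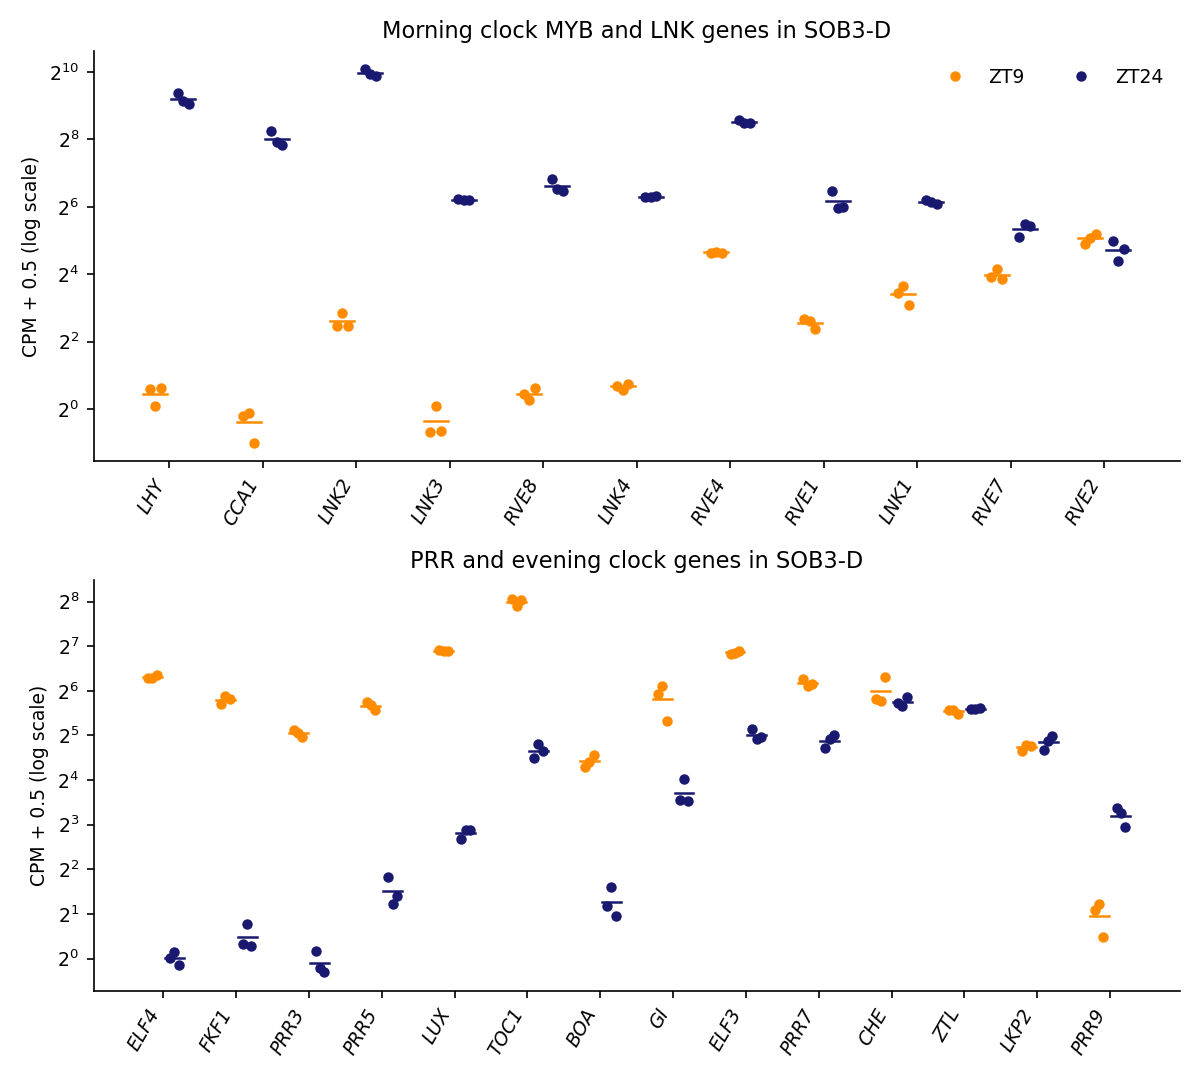
Levels of clock genes in the 6 SOB3-D libraries, CPM + 0.5 on a log axis, with 1 point per library at ZT9 and at ZT24. Morning genes such as LHY and LNK2 lie near the bottom at ZT9 and at 532 CPM or more at ZT24, evening genes such as ELF4, LUX and TOC1 do the opposite, and ZTL stays between 44.2 and 48.6 CPM throughout.

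The evening element (AAAATATCT, on both strands), which CCA1, LHY and the REVEILLE proteins bind, occurred in 6 of the 14 promoters of the evening list against 2.98% of the promoters of tested genes. The windows below are those of the 6 genes (FKF1 has 2 copies), shown with COL2 and RVE7, which hold the same letters and rose, as PRR9 did. Capitals mark the element, read along the gene, so AGATATTTT is the element on the opposite strand.
FKF1 copy 1 (chr1:25508443-25508471, plus strand): tgagtaggctAGATATTTTctcggaatat
FKF1 copy 2 (chr1:25508629-25508657, plus strand): aactaagccaAGATATTTTaaaagtttaa
PRR9 (chr2:19232623-19232651, plus strand): ttctctgagaAGATATTTTcgtggttgtg
LUX (chr3:17182979-17183007, plus strand): tagaagatctAAAATATCTagctaactcg
PRR5 (chr5:8358715-8358743, minus strand): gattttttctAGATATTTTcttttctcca
BOA (chr5:24003835-24003863, plus strand): tgcgggtaaaAGATATTTTagattatcta
TOC1 (chr5:24674802-24674830, plus strand): aaatatcatgAGATATTTTctccaagatg
COL2 (chr3:489638-489666, minus strand): ataagttaccAAAATATCTtcttgttact
RVE7 (chr1:6308275-6308303, minus strand): taatcacaaaAAAATATCTtcttcataat
Across all tested genes with a promoter, the share with the evening element followed the size of the fall. It was 2.16% among the genes that did not pass the test, 7.11% among those that fell, 12.8% among those that fell by at least 1 and 40.5% (30 of 74) among those that fell by at least 3. Among genes that rose it was 1.34%, and 1.92% (1 of 52, COL2) among those that rose by at least 3. The G-box ran the other way, at 8.18% of the genes that fell, 12.9% of those that rose, 18.3% of those that rose by at least 1 and 26.9% (14 of 52) of those that rose by at least 3, although 14.9% (11 of 74) of the genes that fell by at least 3 also held it. The other motifs were searched on both strands too. Their shares follow for all tested genes, then for those that rose and those that fell by at least 1. The ABA element stood at 11%, 20.4% and 12.4%, with 30.8% for rises and 20.3% for falls of at least 3. Site II (TGGGCC), found before ribosomal protein genes among others, stood at 18.4%, 9.73% and 14.1%. The CCA1-binding site (AAAAATCT) stood at 8.1%, 6.26% and 10.3%, with 9.62% for rises and 5.41% for falls of at least 3. The I-box core (GATAAG) stood at 14.7%, 16.8% and 19.5%, and the telo-box (AAACCCTA) at 5.43%, 2.24% and 4.07%. The LUX-binding sites stood at 5.59%, 6.82% and 5.57% (GATACG) and at 10.1%, 9.28% and 8.58% (GATTCG). These shares are descriptions over gene groups that the change itself defined.

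**Figure D2:**
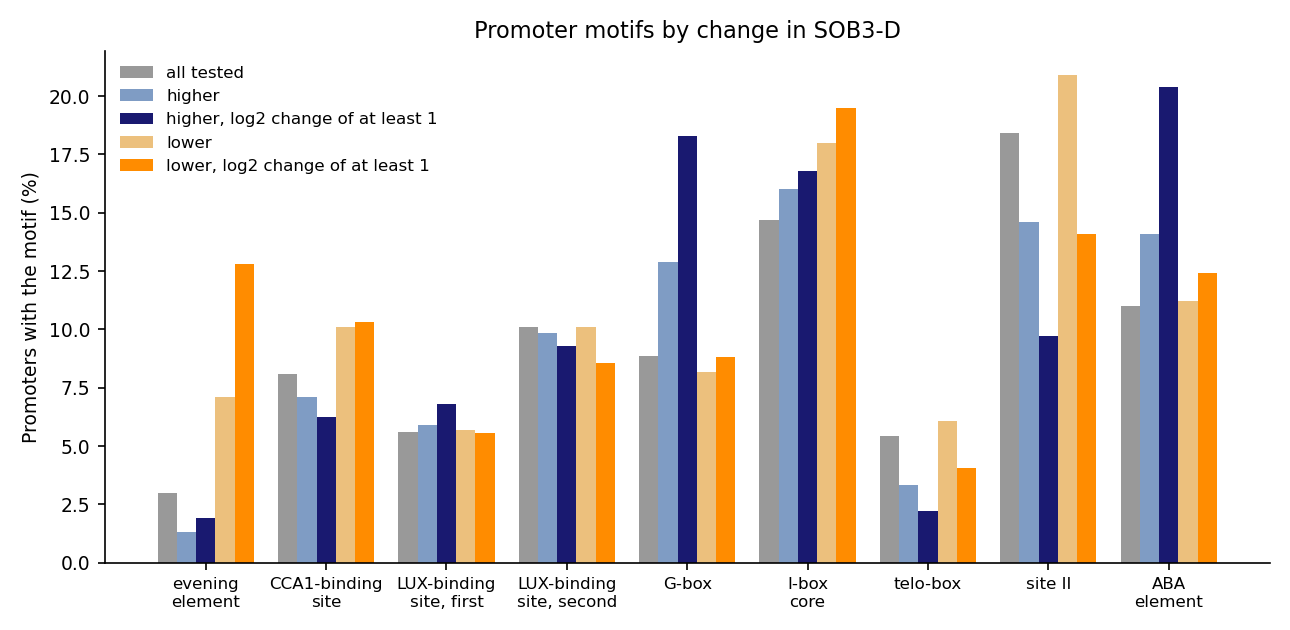
Percent of 300-base promoters that hold each of 9 motifs, for all tested genes, for genes that rose or fell between ZT9 and ZT24 in SOB3-D, and for those that did so by at least 1 on the log2 scale. The evening element stands at 2.98% of the tested genes and 12.8% of those that fell by at least 1, and the G-box at 8.85% of the tested genes and 18.3% of those that rose by at least 1.

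Genes of the photoperiodic flowering pathway, which the clock drives, split by phase. Of 7 tested, 5 rose and 2 fell. CDF3, a Dof repressor of the flowering gene CO, read 2.85, 4.07 and 2.45 CPM at ZT9 and 84.8, 87.2 and 86.9 CPM at ZT24, a change of 4.61 (SE 0.16, adjusted p = 1.17e-08). Its relatives CDF1 (3.47) and CDF5 (2.02), named after their values were seen, rose too. The CO-like genes COL2 (5.35) and COL1 (5.10) were low at ZT9, at 1.93 to 3.35 CPM, and at 75.2 to 189 CPM at dawn. CO itself read 4.71, 3.09 and 3.35 CPM at ZT9 and 1.14, 1.34 and 1.23 CPM at ZT24 and fell by 1.26 (SE 0.23, adjusted p = 0.00139). COL9, a repressor of CO, fell by 4.51 (SE 0.10) from 153 to 175 CPM down to 6.05 to 7.32 CPM.

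PIF genes were higher at the end of the night. Of 6 tested, 5 rose and none fell in limma, edgeR or DESeq2 (1 at an unadjusted p under 0.05), with a median change of 0.75. PIF5 read 53.1, 49.5 and 38.0 CPM at ZT9 and 162, 165 and 146 CPM at ZT24, a change of 1.75 (SE 0.12, adjusted p = 1.8e-06). PIF4 read 50.7, 60.2 and 53.2 CPM at ZT9 and 78.0, 88.9 and 88.5 CPM at ZT24, a change of 0.64 (SE 0.09, adjusted p = 0.000352). Both genes were higher in all dawn libraries, PIF5 by 3.37-fold and PIF4 by 1.55-fold, and at ZT4 they stood at 139 ± 5.35 and 138 ± 4.97 CPM (SD, n = 3). PIF6, mainly known from seeds, rose by 1.59 and PIF1 by 0.86, and PIF8, named after its values were seen, by 1.72 (SE 0.13). PIF3 rose by 0.52 (SE 0.17, adjusted p = 0.0384), a call that was lost without any 1 of the 3 ZT24 libraries and in the fit of 18 libraries (adjusted p = 0.153). PIF7 read 7.31, 7.58 and 9.40 CPM at ZT9 and 7.57, 5.36 and 5.43 CPM at ZT24, with overlapping groups (adjusted p = 0.121, and 0.0475 for a fall without ZT24 replicate 1), against 49.5 ± 3.6 CPM at ZT4.

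Genes known to be induced by the PIF proteins rose nearly as a block. Of 20 tested, 19 rose and 1 fell, with a median change of 1.72. PIL1, a helix-loop-helix protein used as a reporter of PIF activity, read 0.743, 0.842 and 0.644 CPM at ZT9 and 12.9, 18 and 16.8 CPM at ZT24, a change of 3.71 (SE 0.19, adjusted p = 2.59e-07). HFR1, a helix-loop-helix protein that binds PIFs and limits their activity, read 5.82, 11.9 and 11.6 CPM at ZT9 and 121, 129 and 119 CPM at ZT24, a change of 3.65 (SE 0.22). ATHB-2, a homeodomain factor of the shade response, read 13.1, 10.2 and 8.76 CPM at ZT9 and 84.3, 92.9 and 84.4 CPM at ZT24, a change of 2.99 (SE 0.14). In all of these the dawn libraries lay well above the evening ones, and the ZT4 means of PIL1 (1.09 CPM) and ATHB-2 (13.6 CPM) were near their ZT9 values.

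The small auxin-induced growth proteins SAUR22 (3.01), SAUR19 (2.89) and SAUR24 (2.05) rose from under 1.2 CPM in every ZT9 library. PRE1 (2.25) and PAR1 (1.99), small helix-loop-helix proteins, ATHB4 (1.37) and the ethylene synthesis gene ACS8 (1.69) rose, as did the cell elongation genes LNG2 (0.84) and LNG1 (0.49) and CKX5 (0.57), which breaks down cytokinin. HAT3, a homeodomain gene close to ATHB4, was the exception at -0.32 (SE 0.10, adjusted p = 0.0274), and its call was lost with DESeq2 (adjusted p = 0.0773) and in 4 of the 6 fits that left out 1 library. Of the 20 promoters in this list only that of IAA19 held a G-box within the 300 bases searched, starting 70 bases before the start. IAA19 rose by 1.03 (SE 0.27, adjusted p = 0.0124, and 0.0521 without ZT24 replicate 3).
IAA19 (chr3:5263920-5263948, plus strand): tcaaatgactcCACGTGtcgatattggat

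**Figure D3:**
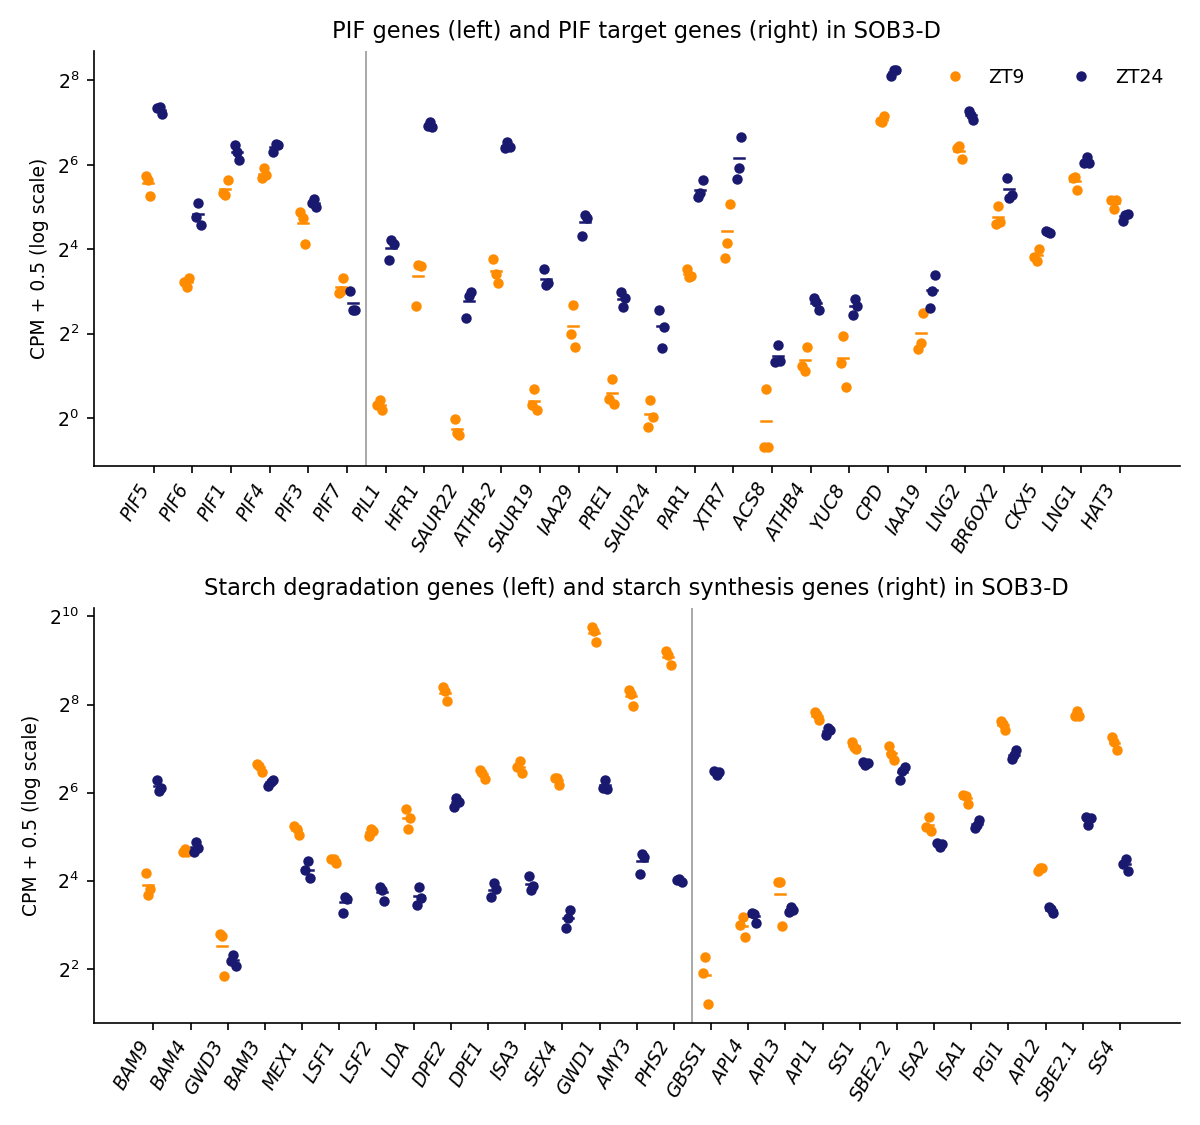
Levels of PIF genes, PIF target genes and starch genes in the 6 SOB3-D libraries, CPM + 0.5 on a log axis, 1 point per library at ZT9 and ZT24. PIF5, PIL1, HFR1 and ATHB-2 are higher in all ZT24 libraries, and the starch degradation genes PHS2, AMY3 and GWD1 are lower in all of them.

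The hormone lists had smaller median changes than the PIF target list. Of all tested nuclear genes 18.4% rose and 19.6% fell. Of 31 Aux/IAA and GH3 genes, the early auxin response genes, 14 rose, 2 fell and 15 did not pass, with a median change of 0.38. IAA29, itself a PIF target, read 3.47, 5.89 and 2.70 CPM at ZT9 and 19.4, 27.6 and 26.2 CPM at ZT24 and rose by 2.51 (SE 0.24, adjusted p = 2.16e-05). GH3.5, which conjugates auxin, read 32.2, 33.0 and 28.8 CPM at ZT9 and 103, 128 and 107 CPM at ZT24 and rose by 1.82 (SE 0.10). No library overlapped between the times in either gene. IAA32 (-1.43) and IAA9 (-0.50) fell, although 39.8% of the IAA32 stretches are shared with AT2G01210. Among 25 auxin synthesis and transport genes 8 rose and 4 fell (median 0.13), led by the synthesis genes YUC9 (1.64), YUC8 (1.31) and YUC2 (1.24), each under 7 CPM throughout, and by falls of the transporters PIN5 (-1.02) and PIN6 (-0.92, adjusted p = 0.0549 without ZT9 replicate 3) and of TAA1 (-0.73, adjusted p = 0.0542 without ZT9 replicate 2 and 0.0557 without ZT24 replicate 2).

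Among 18 brassinosteroid genes 6 rose and 1 fell (median 0.10), beside 38.1% of all tested nuclear genes that moved in either direction. The falls were 3 with edgeR and 2 with TMM rescaling, in the fit of 18 libraries or without ZT9 replicate 1. The synthesis gene CPD read 131, 128 and 143 CPM at ZT9 and 276, 304 and 302 CPM at ZT24, a change of 1.13 (SE 0.08, adjusted p = 1.69e-06). ROT3 (0.99) and BR6OX2 (0.65), also for synthesis, rose, and BAK1, a co-receptor, fell by 0.82 (SE 0.07). In each of these synthesis genes all dawn libraries lay above all evening ones. Of 22 gibberellin genes 10 rose and 4 fell (median 0.41). GASA6, a gibberellin-induced peptide gene, read 56.4, 48.4 and 61.4 CPM at ZT9 and 455, 389 and 421 CPM at ZT24, a change of 2.92 (SE 0.10, adjusted p = 1.16e-08). The growth-restraining DELLA gene RGL1 rose by 1.07, and RGA, named after its values were seen, by 0.93 (SE 0.08). GA2OX4, for gibberellin inactivation, rose by 1.41 and GA2OX2, of the same family, fell by 0.86, while the synthesis genes GA2 (-1.35) and GA3OX2 (-1.21) fell.

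Cell wall genes split evenly, 15 of 43 expansin and xyloglucan endotransglucosylase genes having risen and 15 fallen (median -0.02). EXPA8 read 20.7, 18.24 and 20.9 CPM at ZT9 and 152, 142 and 134 CPM at ZT24, a change of 2.81 (SE 0.09, adjusted p = 7.26e-09). EXPA1 rose by 2.02 (SE 0.17) and XTR7, a wall enzyme gene that shares 26.6% of its stretches with AT4G14120, by 1.75. XTH22, the touch gene TCH4, read 64.0, 126 and 138 CPM at ZT9 and 15.3, 23.63 and 22.2 CPM at ZT24, and fell by 2.34 (SE 0.26), and XTH9 (-1.84) and EXPB3 (-1.58) fell too. Cell cycle genes fell by small amounts, 16 of 30 with 2 rises and a median change of -0.46. The mitotic kinase gene CDKB2;1 read 29, 32.6 and 36.3 CPM at ZT9 and 17.3, 20.09 and 19.8 CPM at ZT24, a change of -0.76 (SE 0.11, adjusted p = 0.000464). CDKB1;2 (-0.81) and the replication gene MCM6 (-0.74) fell likewise, whereas the D-type cyclins CYCD2;1 (0.62) and CYCD1;1 (0.58) rose.

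Among 27 photoreceptor and light signalling genes 13 rose and 4 fell (median 0.25). BBX25 read 0.991, 1.54 and 0.515 CPM at ZT9 and 73.6, 56.1 and 50.9 CPM at ZT24, a change of 5.36 (SE 0.25, adjusted p = 1e-07). Its close relative BBX24, like it a B-box negative regulator of light responses, rose by 2.71 (SE 0.10) from 27.9 to 36.5 CPM up to 206 to 212 CPM, and HYH, the homologue of the light-response factor HY5, rose by 3.08 (SE 0.18). The B-box genes BBX20 (-2.51, SE 0.32) and BBX22 (-2.33, SE 0.15), positive regulators of the light response, fell, and so did the UV-B receptor UVR8 (-0.61, SE 0.07).

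Genes of the light-harvesting antenna, which carry light energy to the photosystems, were mostly higher after 16 h of darkness than 1 h after dusk. Of 20 tested, 16 rose and 3 fell, with a median change of 0.70. LHCB2.3 read 32.6, 35.9 and 34.5 CPM at ZT9 and 1159, 934 and 983 CPM at ZT24, a change of 4.87 (SE 0.09, adjusted p = 2.23e-10), although 37% of its stretches are shared with AT3G27700. LHCB2.1 read 272, 268 and 283 CPM at ZT9 and 3330.2, 3385 and 3413 CPM at ZT24, a change of 3.62 (SE 0.07). LHCB2.2 read 274, 272 and 276 CPM at ZT9 and 3133, 3142 and 3133 CPM at ZT24, a change of 3.51 (SE 0.07). LHCB2.1 and LHCB2.2 share 12.6% and 16.7% of their stretches with each other, so their near-equal levels are not independent. The largest member by signal, CAB1, which shares 8.2% of its stretches with CAB2, rose from 11164 to 14215 CPM up to 25288 to 25840 CPM. The minor antenna genes LHCA5 (-0.65), LHCA6 (-0.60) and LHCB4.3 (-0.67, adjusted p = 0.0765 with DESeq2, and 0.0587 and 0.0617 without ZT9 replicate 3 or ZT24 replicate 1) fell, all of them under 125 CPM.

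Chlorophyll synthesis genes went both ways, with 6 of 23 higher and 13 lower (median -0.37). GUN4, which activates magnesium chelatase, read 22.4, 23.0 and 23.1 CPM at ZT9 and 190.3, 187 and 188 CPM at ZT24, a change of 3.02 (SE 0.07, adjusted p = 9.34e-10), although 71.1% of its stretches lie within transcripts of its neighbour GCN2 on either strand. HEMA1, for the first committed step, read 168, 165 and 166 CPM at ZT9 and 710.0, 609 and 632 CPM at ZT24, a change of 1.96 (SE 0.08). The light-dependent protochlorophyllide reductases differed among themselves. PORB read 461, 443 and 419.5 CPM at ZT9 and 149.8, 192 and 164 CPM at ZT24, a change of -1.39 (SE 0.09), and PORC fell by 1.15 (SE 0.07). PORA, known from dark-grown seedlings, had 3 reads in all at ZT9 and 71 at ZT24 (adjusted p = 0.000421), a ratio of 21.0 per mapped read with a 95% exact interval of 6.90 to 104 for counting error alone.

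The genes that fix carbon went against the antenna. Of 25 Calvin cycle and photorespiration genes, 2 rose and 15 fell, with a median change of -0.54. CP12-2, which holds Calvin cycle enzymes in an inactive complex in the dark, read 184, 169 and 243 CPM at ZT9 and 29.8, 28.5 and 24 CPM at ZT24, a change of -2.82 (SE 0.13, adjusted p = 1.31e-07). GDCH and GLDP1, subunits of glycine decarboxylase in photorespiration, changed by -1.47 (SE 0.09) and -1.41 (SE 0.08). GLDP1 read 1126, 1131 and 1010.4 CPM at ZT9 and 411, 379.7 and 437 CPM at ZT24, so its groups lay far apart. GAPA, the chloroplast glyceraldehyde phosphate dehydrogenase, rose by 0.52 (SE 0.08) and the aldolase gene FBA1 by 0.46 (SE 0.08). Of 84 chloroplast-encoded genes 5 rose and none fell in limma, edgeR or DESeq2 (3 at an unadjusted p under 0.05), and of 65 mitochondria-encoded genes 1 rose and 1 fell. In poly(A)-selected libraries the organelle counts cover only part of those transcripts.

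Starch breakdown genes were mostly lower at dawn. Of 15 tested, 12 fell and 1 rose, with a median change of -1.77. PHS2, the cytosolic glucan phosphorylase, read 591, 557 and 479 CPM at ZT9 and 15.7, 16.0 and 15.2 CPM at ZT24, a change of -5.07 (SE 0.09, adjusted p = 1.82e-10). GWD1, the dikinase that phosphorylates starch to open it for breakdown, read 873, 815 and 689 CPM at ZT9 and 68.0, 78.1 and 67.5 CPM at ZT24, a change of -3.46 (SE 0.10). AMY3, a plastid alpha-amylase, read 324, 302 and 250.1 CPM at ZT9 and 17.3, 24 and 22.9 CPM at ZT24, a change of -3.75 (SE 0.13). Each of these was more than 10-fold lower at dawn, and at ZT4 all were between their ZT9 and ZT24 levels (PHS2 194, GWD1 324 and AMY3 164 CPM). BAM9, of the beta-amylase family, was the exception and rose by 2.26 (SE 0.13) from 12.2 to 17.5 CPM up to 65.6 to 77.6 CPM.

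Starch synthesis genes fell in 9 of 12 cases, with 1 rise. The branching enzyme gene SBE2.1 (-2.41, SE 0.08), the granule initiation gene SS4 (-2.76, SE 0.10) and APL2 (-0.92, SE 0.11), a subunit of the first enzyme of the pathway, led the falls. The rise was GBSS1, the synthase that makes amylose, which read 3.22, 4.35 and 1.80 CPM at ZT9 and 89.9, 84.2 and 88.3 CPM at ZT24, a change of 4.67 (SE 0.22, adjusted p = 1.37e-07). At ZT4 GBSS1 stood at 74.6 ± 11.5 CPM (SD, n = 3), so the ZT9 libraries alone were low.

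The genes tested that respond to carbon starvation in the dark did not move as a group at the end of the 16 h night. The list held 25 symbols, and DRM1 and DRM2 were among those left out. Of 22 tested, 6 rose, 4 fell and 12 did not pass (median 0.19), and the rises dropped to 3 without ZT9 replicate 2 or without ZT24 replicate 3. The asparagine synthetase gene DIN6 read 69.7, 63.9 and 97.0 CPM at ZT9 and 239, 123 and 191 CPM at ZT24, a change of 1.23 (SE 0.22, adjusted p = 0.0014), and IVD, for leucine breakdown, rose by 1.05 (SE 0.10). DIN10 went the other way, from 1546, 1069 and 1270.2 CPM at ZT9 to 194, 142 and 226 CPM at ZT24, a change of -2.80 (SE 0.17). Within this list the well-known dark-inducible genes thus lay on both sides, DIN9 at 0.78 (adjusted p = 0.0488, lost in 5 of the 6 fits without 1 library, with no filter, with a minimum mean of 5 CPM, with TMM rescaling and with 1 transcript per gene) and DIN4 at -0.54.

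**Figure D4:**
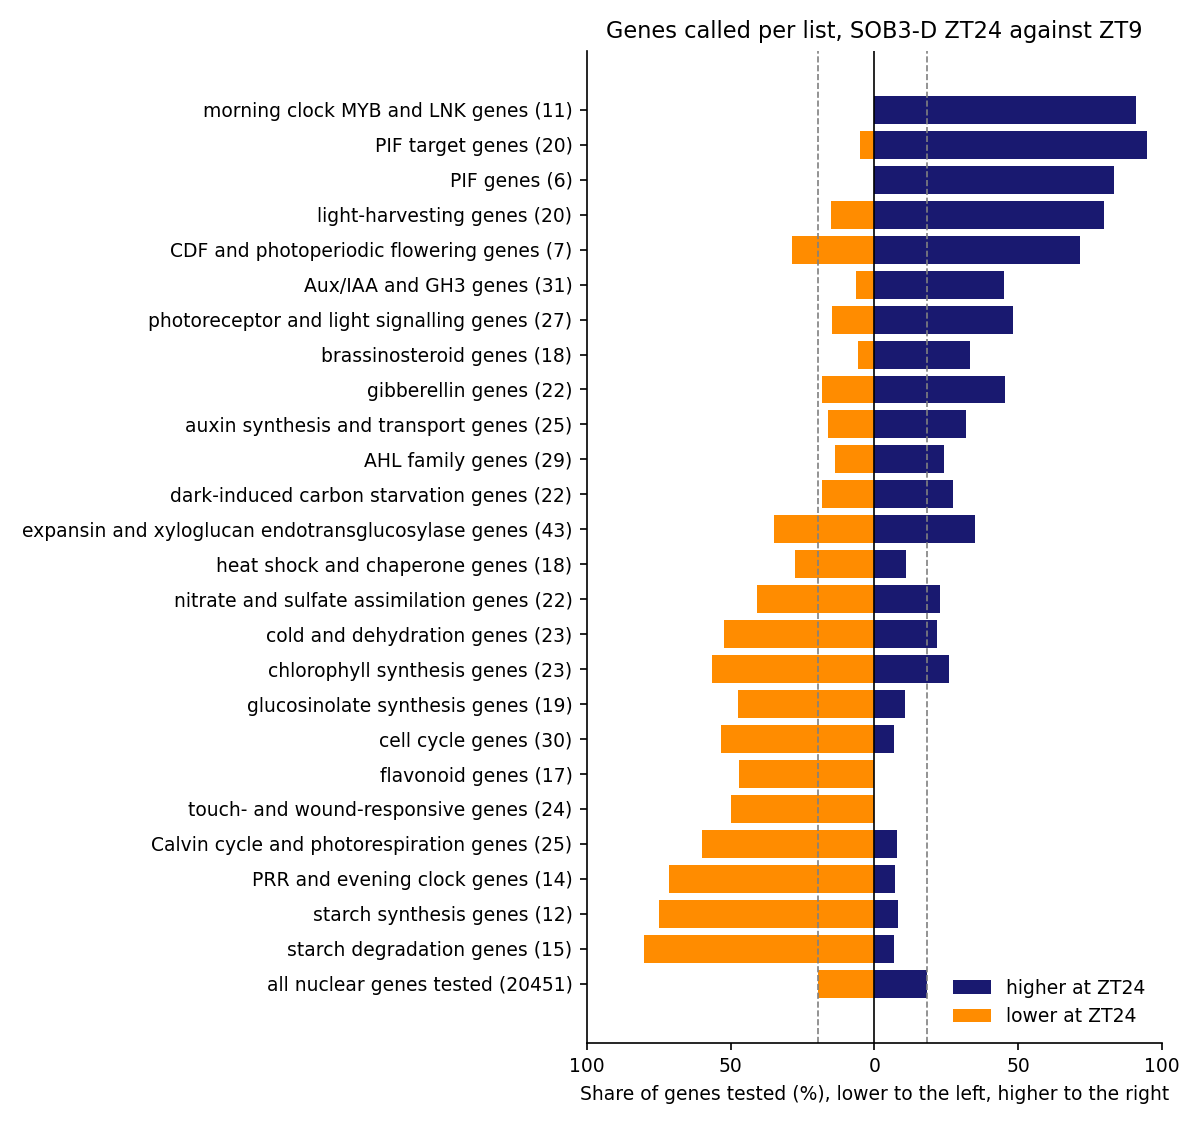
Share of the tested genes of each list (percent) that rose (right) or fell (left) between ZT9 and ZT24 in SOB3-D at an adjusted p under 0.05, with the 18.4% and 19.6% of all tested nuclear genes as dashed lines. The morning clock, PIF target and light-harvesting lists lie to the right, the evening clock, starch and Calvin cycle lists to the left, and the expansin and xyloglucan endotransglucosylase list is even at 15 and 15 of 43.

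Among stress and defence lists, fewer genes rose than fell. Of 23 cold and dehydration genes 12 fell and 5 rose (median -0.75), the rises becoming 8 without ZT9 replicate 2. COR15A, which protects membranes in the cold, read 18.21, 49.5 and 59.9 CPM at ZT9 and 0.379, 0.365 and 0.717 CPM at ZT24, a change of -5.30 (SE 0.38, adjusted p = 2.42e-06). COR27, a clock-linked cold gene, read 156, 144 and 169.7 CPM at ZT9 and 8.46, 9.62 and 8.92 CPM at ZT24, a change of -4.04 (SE 0.10). Although the ZT9 libraries of COR15A spread 3-fold, with replicate 1 lowest, both genes stayed apart between the times, and COR15B, 25.6% of whose stretches are shared with AT2G42520, fell by 5.99 (SE 0.34). NCED3, for abscisic acid synthesis (2.43, SE 0.24), GOLS2, for galactinol synthesis (2.09, SE 0.30), and CBF2, a cold regulator at under 6 CPM (1.90, SE 0.48), rose.

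Touch- and wound-responsive genes fell in 12 of 24 cases (median -0.66), and none rose in limma, edgeR or DESeq2, nor at an unadjusted p under 0.05, although without ZT9 replicate 2 there was 1 rise in this list and 1 among the flavonoid genes. LOX2, for jasmonate synthesis, read 212, 326 and 294 CPM at ZT9 and 77.2, 41.2 and 24.7 CPM at ZT24, a change of -2.66 (SE 0.33, adjusted p = 0.000113), and VSP2, induced by jasmonate, fell by 2.07 (SE 0.20). Of 17 flavonoid genes 8 fell and none rose in limma, edgeR or DESeq2 (1 at an unadjusted p under 0.05), with a median of -0.75. TT4, chalcone synthase, read 191, 180.1 and 169 CPM at ZT9 and 35.2, 15.3 and 24.4 CPM at ZT24, a change of -2.90 (SE 0.23), and the flavonol synthase gene FLS1 (-3.36, SE 0.17) and DFR (-1.80, SE 0.42) fell too. Every one of these genes was lower in all dawn libraries. Heat shock and chaperone genes gave 2 rises and 5 falls of 18 (median -0.10), beside 38.1% of all tested nuclear genes that moved. HSFB2A (1.04) and MBF1C (0.59) rose, and HSFA3 (-1.18), BIP2 (-0.40) and HSP17.6II (-1.09) were among the falls. The falls dropped to 3 without ZT9 replicate 1, ZT24 replicate 1 or ZT24 replicate 3.

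Nutrient genes went both ways. Of 22 nitrate and sulfate assimilation genes 5 rose and 9 fell (median 0.03), and 3 rose without ZT24 replicate 2. The nitrate reductase gene NIA2 read 1660.1, 1457 and 1256 CPM at ZT9 and 2718, 2964 and 2634 CPM at ZT24, a change of 0.93 (SE 0.12, adjusted p = 0.000116), and GLT1, a glutamate synthase (0.79), and LBD37, a nitrogen-responsive repressor (0.58), rose. The sulfate genes APS3 (-1.37, SE 0.14) and APR1 (-1.14, SE 0.17) fell, as did the nitrate transporter gene NRT2.1 (-1.46, SE 0.47), the latter at under 5 CPM and with an adjusted p of 0.0808 to 0.121 without ZT9 replicate 1 or 2 or ZT24 replicate 1.

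Of 19 glucosinolate genes 2 rose and 9 fell (median -0.38). The 2 that rose, CYP79B3 (0.65, SE 0.08) and MYB34 (0.58, SE 0.16, adjusted p = 0.0592 and 0.0721 without ZT24 replicate 1 or 2), act in the branch that starts from tryptophan. CYP83A1, of the branch that starts from methionine, read 64.5, 68.9 and 45.1 CPM at ZT9 and 8.08, 10.4 and 13.1 CPM at ZT24, a change of -2.45 (SE 0.19, adjusted p = 4.78e-06). MAM1, which lengthens the methionine chain in the same branch, read 54.3, 61.6 and 44.2 CPM at ZT9 and 6.82, 12.2 and 12.9 CPM at ZT24, a change of -2.31 (SE 0.22). CYP79F1, also of that branch, fell by 2.42 (SE 0.32). In these methionine-branch genes the lowest evening library was above the highest dawn one.

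SOB3 belongs to the AHL family, of which 29 genes were tested. Of these 7 rose and 4 fell (median 0.16), beside 38.1% of all tested nuclear genes that moved in either direction. AHL17 read 7.56, 8.28 and 7.21 CPM at ZT9 and 24.7, 23.63 and 22.0 CPM at ZT24, a change of 1.55 (SE 0.12, adjusted p = 4.03e-06). AHL2 read 12.1, 11.8 and 12.4 CPM at ZT9 and 3.79, 3.41 and 3.59 CPM at ZT24, a change of -1.62 (SE 0.14, adjusted p = 1.05e-05). The replicates of both were tight, and their changes were of like size in opposite directions. AHL20 (0.97) and AHL23 (0.94) rose, and AHL12 (-1.31) and AHL9 (-0.85) fell, all of them at under 36 CPM.

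The largest changes outside the lists named above included several genes with other roles. FBA5, an aldolase isoform, read 240.0, 263 and 370.2 CPM at ZT9 and 1.51, 2.80 and 2.66 CPM at ZT24, a change of -6.70 (SE 0.21, adjusted p = 6.22e-09), the largest fall on the log2(CPM + 0.5) scale. RbcX1, a chaperone for Rubisco assembly, fell by 5.15 (SE 0.21). The most abundant of the large falls, AT2G33830, went from 1481 to 2085 CPM down to 34.8 to 67.6 CPM, a change of -5.27 (SE 0.23), and was already at 44.3 ± 3.85 CPM at ZT4, so in SOB3-D it was high at ZT9 alone. AT1G07050, with 1287 reads at ZT9 and 4 at ZT24, fell by 6.42 (SE 0.17). This gene was at the detection limit at dawn, where the added 0.5 CPM sets the value, and with edgeR, which works on reads, it changed by -8.39 and FBA5 by -6.97. AT4G33980 (-5.92), AT3G62550 (-5.76), AT1G56300 (-5.47), AT4G30650 (-5.45), AT1G70820 (-5.40) and AT4G16146 (-5.28) were the other large falls. Shared stretches made up 37.1% of AT1G56300, 17.8% of COL2, 11.7% of CDKB1;2, 11.6% of PIF7, 11% of BIP2 and 10.6% of AHL9, whose reads are uncertain to that extent.

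Of the 15 largest falls, 8 had the evening element in the promoter, namely FBA5, AT4G33980, AT1G56300, AT4G30650, AT1G70820, FKF1, AT4G16146 and RbcX1, against 1 of the 15 largest rises. Among the large rises outside the lists, the B-box gene BBX16 read 0.619, 0.281 and 0 CPM at ZT9 and 35.8, 34.5 and 30.6 CPM at ZT24, a change of 5.49 (SE 0.27, adjusted p = 1.6e-07). BETA-OHASE 2, a carotenoid hydroxylase, rose by 4.99 (SE 0.19), and AT3G55240 (5.37), AT1G64500 (4.88) and AT5G15950 (4.86) rose as far. Each of these was at under 3.1 CPM in all 3 ZT9 libraries.

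The same time contrast in sob3-6 shows where SOB3-D differed. Of the 7783 genes that moved in 1 direction in SOB3-D, 7229 had the same sign in sob3-6. The difference between the changes, SOB3-D minus sob3-6, was tested in 1 limma fit of the 18 libraries. It was more positive in SOB3-D for 312 of 20567 genes (1.52%) and more negative for 533 (2.59%). Both genotypes of a replicate came from the same plates, and with the replicate as a block within each time point the counts were 578 and 896. With no block and 1 replicate number left out, they were 10 and 5 (replicate 2), 41 and 65 (replicate 1) and 261 and 385 (replicate 3). These fits hold fewer libraries in each group, and the cause of the lower counts was not tested. Among the clock lists, 4 of 11 morning genes and 2 of 14 evening genes passed this test, and 5 and 3 with the block. LHY differed by -0.09 (SE 0.33), ELF4 by -0.56 (SE 0.22) and TOC1 by 0.14 (SE 0.15), none past the test. Those that passed were LNK2 at 1.58 (SE 0.21, adjusted p = 0.000595), RVE7 at 1.48, GI at 1.01, CHE at 0.88, LNK4 at 0.81 and RVE1 at -1.06.

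The difference touched many photosynthesis genes. Of 20 light-harvesting genes, 13 were more positive in SOB3-D (median difference 0.81), whereas of 25 Calvin cycle and photorespiration genes 21 were more negative (median difference -0.98). None of the 20 was more negative in this fit or with edgeR (2 at an unadjusted p under 0.05), but with the replicate block LHCA6 (-0.53, adjusted p = 0.00719) and LHCA5 (-0.49, adjusted p = 0.0228) were, and LHCA5 also with a minimum mean of 5 CPM (adjusted p = 0.0462). None of the 25 was more positive in this fit, with edgeR, with the block or at an unadjusted p under 0.05. In sob3-6 itself, in a fit of the 18 libraries, 5 light-harvesting genes rose and 4 fell (median -0.09). There 10 Calvin cycle genes rose and 1 fell (median 0.25). Over 20567 nuclear genes in that fit, 2561 rose and 2839 fell in sob3-6, and 3820 and 3936 in SOB3-D. The counts of 13 and 21 were 15 and 22 with the replicate block, 11 and 17 with edgeR, and 9 and 16 with TMM rescaling. Without replicate 1 they were 6 and 7, without replicate 2 they were 4 and 0, and without replicate 3 they were 12 and 21. The members given next by both genotypes were chosen after their values were seen.

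LHCB2.1 read 1041, 1118 and 974 CPM at ZT9 and 3049, 3184 and 3217 CPM at ZT24 in sob3-6, against 268 to 283 and 3330.2 to 3413 CPM in SOB3-D. The dawn levels were thus close and the larger rise of SOB3-D, by 2.02 (SE 0.14, adjusted p = 2.32e-07), came with a lower evening level. LHB1B1 read 1651, 1771 and 2141 CPM at ZT9 and 4391, 3269 and 3643 CPM at ZT24 in SOB3-D, and 5214, 5708 and 6705 CPM and then 3120, 2624 and 3062 CPM in sob3-6. It therefore moved in opposite directions in the 2 genotypes, with a difference of 2.02 (SE 0.23, adjusted p = 0.000114).

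SBPASE, a Calvin cycle phosphatase, read 619, 626 and 650 CPM at ZT9 and 320.2, 339 and 358 CPM at ZT24 in SOB3-D, and 330.2, 384 and 446 CPM and then 485, 514 and 522 CPM in sob3-6. The evening level was higher in SOB3-D and the dawn level lower, and the changes differed by -1.30 (SE 0.16, adjusted p = 0.000238). GLDP1, which fell in SOB3-D, read 695, 793 and 846 CPM at ZT9 and 766, 832 and 881 CPM at ZT24 in sob3-6, with a difference of -1.50 (SE 0.18). FBA5 fell in both genotypes but further in SOB3-D, by a difference of -3.57 (SE 0.38, adjusted p = 7.13e-05).

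**Figure D5:**
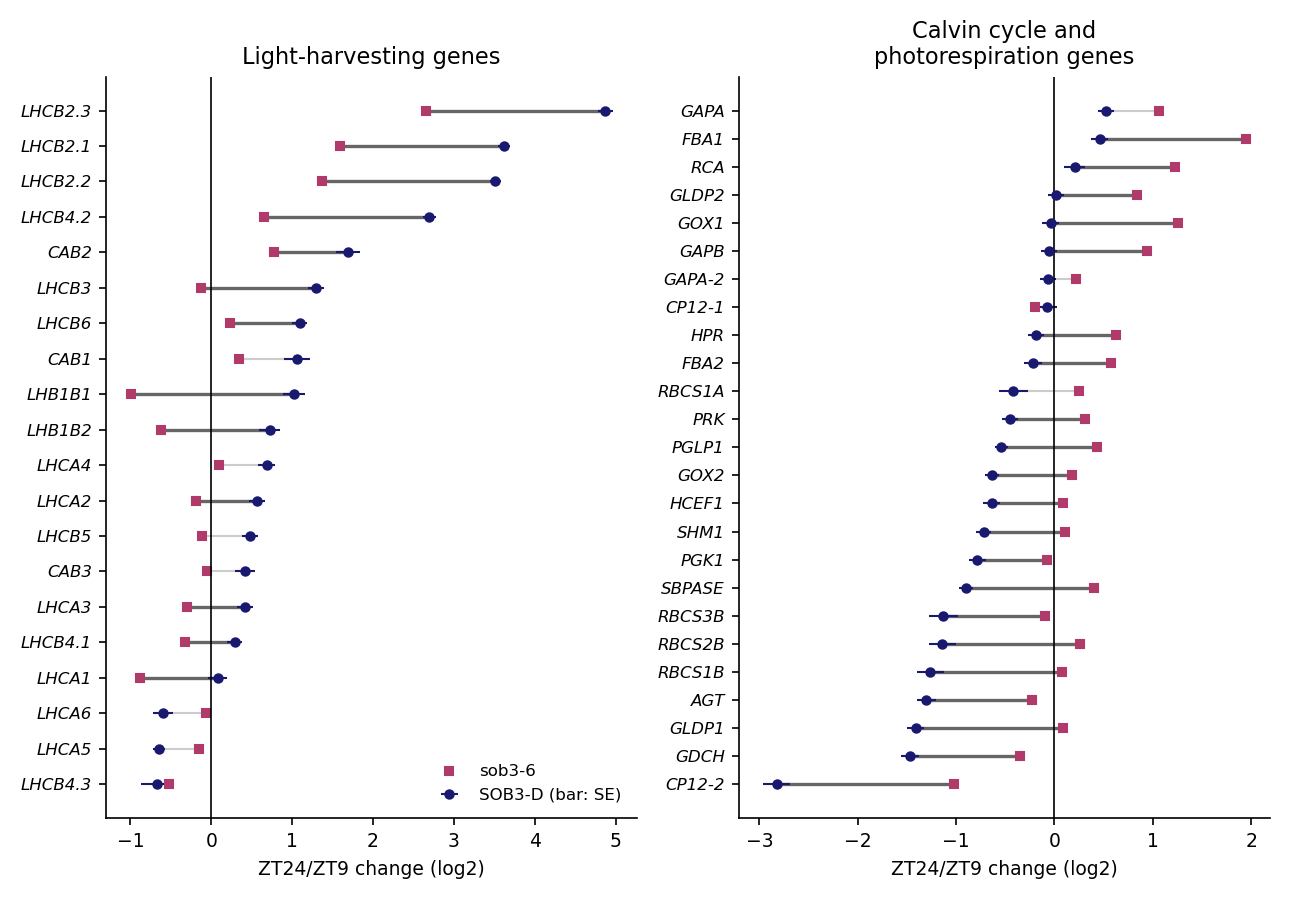
Change from ZT9 to ZT24 (log2, horizontal axis) of each light-harvesting gene (left) and each Calvin cycle and photorespiration gene (right), in SOB3-D (circle, bar for the SE) and in sob3-6 (square), joined by a line that is dark where the difference passed the interaction test. The SOB3-D circles lie mostly to the right of the sob3-6 squares in the light-harvesting genes (median difference 0.81) and mostly to the left in the Calvin cycle genes (median difference -0.98).

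PIF4 also parted the genotypes. It rose by 0.64 in SOB3-D, from 50.7 to 60.2 CPM up to 78.0 to 88.9 CPM, whereas in sob3-6 it read 158, 167 and 143 CPM at ZT9 and 94.5, 116 and 101 CPM at ZT24. Its level was lower in SOB3-D at both times, the gap being larger at ZT9, and the changes differed by 1.22 (SE 0.15, adjusted p = 0.000251). PAR1 differed by 1.58 (SE 0.28, adjusted p = 0.00358), with sob3-6 at 32.5, 34.7 and 31.5 CPM already at ZT9 against 9.68 to 11.1 CPM in SOB3-D. The other PIF genes did not pass this test, and of the 20 PIF targets PAR1 and CKX5 (-1.01) did. With the replicate block 2 of the 6 PIF genes and 3 of the 20 targets passed, and without replicate 3, in a fit with no block, 3 of the PIF genes.

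In the methionine branch of glucosinolate synthesis, CYP83A1 and MAM1 fell in SOB3-D but read 13.7, 36.6 and 12.1 CPM and 14.7, 41.6 and 8.62 CPM at ZT9 in sob3-6, and 22.8, 34.9 and 28.9 CPM and 26.3, 33.8 and 27.6 CPM at ZT24. Replicate 2 of sob3-6 stood above replicates 1 and 3 at ZT9 in both genes. The changes differed by -3.07 (SE 0.73, adjusted p = 0.0243) and -3.02 (SE 0.78, adjusted p = 0.0352).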

How the data were processed

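Whole-seedling mRNA was sequenced as 84- or 86-bp single reads from KAPA stranded libraries. The authors aligned them to TAIR10 cDNA with Bowtie, reporting all equally good hits, and deposited CPM per transcript, treated here as a signal because a read can count on several transcripts. Whether counting used strand is not given in the sources used here, so overlapping neighbours, like near-identical copies, are uncertain. The values are whole multiples of 1 read (tolerance 0.01 read), which gave the depths. A count of 0 allows up to 3 reads, for counting error only.

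The 6 SOB3-D libraries were joined by transcript. Transcripts that averaged 0.5 CPM or more were tested on log2(CPM + 0.5) with limma 3.58.1 (R 4.3.3), two-sided, with a variance trend and Benjamini-Hochberg adjustment, and a gene was called if 1 of its transcripts was. The difference from sob3-6 was an interaction in 1 fit of 18 libraries. Alternatives were pseudocounts of 0.1 and 1 CPM, other filters (none, 5 CPM), TMM rescaling, edgeR 4.0.16 and DESeq2 1.42.0 on the recovered reads, a replicate block, 1 fit of all libraries, 1 transcript per gene, stricter thresholds and leaving out each library. Scripts were tested on simulated data. Replicates were separate pools of seedlings from different plates.

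The comparison and the gene lists were chosen with earlier results of these data known. Genes named were the 15 largest changes each way without overlap between the times, the 3 largest each way per list, SOB3, all clock, PIF and PIF target genes of the lists, and the 5 largest differences from sob3-6 each way. Of 590 list symbols, 563 matched 1 locus, and the others were left out. Shared stretches are 84-base stretches also found, on either strand, in another gene's transcript.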

Additional observations from a re-analysis of the deposited data

Results flagged for a closer look

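For 42 of the genes named by the rule, the change from ZT9 to ZT24 differed between SOB3-D and sob3-6 by limma's interaction test at an adjusted p under 0.05. Each value is the change in SOB3-D minus the change in sob3-6, on the log2 scale. Among clock genes it was 1.58 for LNK2, 1.48 for RVE7, 1.01 for GI, 0.88 for CHE, 0.81 for LNK4 and -1.06 for RVE1. Among light and flowering genes it was 1.22 for PIF4, 1.58 for PAR1, 0.78 for BBX24 and 0.81 for CDF3. Light-harvesting genes had the values 2.22 (LHCB2.3), 2.14 (LHCB2.2) and 2.02 (LHCB2.1). Chlorophyll synthesis genes had 3.09 (PORA, with 3 reads at ZT9 in SOB3-D, so that it was 2.35 and 4.61 with pseudocounts of 1 and 0.1 CPM and 5.18 with edgeR), 1.59 (PORB), 1.26 (GUN4), 0.72 (HEMA1), -0.62 (PORC) and -0.77 (GSA2).

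Of the carbon genes named by the rule, those past this test were more negative in SOB3-D, with FBA5 at -3.57, CP12-2 at -1.80, GLDP1 at -1.50, FBA1 at -1.48, GDCH at -1.12 and the starch gene SS4 at -0.63. Growth genes were at 1.34 (EXPA8), 1.11 (GASA6), -0.82 (GH3.5), -1.01 (CKX5) and -1.33 (EXPB3). The glucosinolate genes CYP83A1 and MAM1 were at -3.07 and -3.02, and IPMI2, an isopropylmalate isomerase gene that fell by 2.32 in SOB3-D, was at -3.04. The sulfate gene APS3 was at -0.73 and MBF1C at 1.33. Genes without a list were AT3G55240 at 3.08, AT5G44440 at 3.03, AT5G48490 at 2.62, AT5G48570 at 2.23, AT3G62550 at -1.40, AT1G65490 at -3.10 and AT2G25510 at -3.23.

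All 42 kept this call with the replicate block and 32 with edgeR. The call was kept by 15 without replicate 1, by 8 without replicate 2 and by 34 without replicate 3, and none reversed. AT5G44440 and AT1G65490 did not change past the test in SOB3-D itself (-0.25, SE 0.34, and -0.06, SE 0.27).
The fall of AT2G25510 in SOB3-D (-1.93) had an adjusted p of 0.0572 without ZT9 replicate 2.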

How the results depend on the processing

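The numbers of genes that rose (3767) or fell (4018) kept within 1.5 times under each planned change of pseudocount, filter, scaling, tool or fit, with the lowest counts given by DESeq2 at 2871 and 3476, and by leaving out 1 library, at 2959 to 3547 and 3275 to 4121. An adjusted p under 0.01 left 2440 rises, and a change of at least 1 left 909 and 1144. Genes more positive or more negative in SOB3-D than in sob3-6 (312 and 533) were 186 more positive with TMM rescaling, 188 and 354 with edgeR, 578 and 896 with the replicate block, and 10 to 261 and 5 to 385 without 1 replicate number. The cause was not tested.

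The replicate numbers did not pair ZT9 with ZT24 (same-number deviations correlated at r of -0.01, 0.05 and 0.13 across transcripts), and the replicate block gave 3786 and 4031. With edgeR and the block, an alternative added after seeing the data, as was the interaction in 12 libraries, the counts were 3641 and 4295. Rises were 48.4% of the calls, 46.2% with TMM, 45.6% with edgeR and 45.2% with DESeq2. Of 179 named genes 172 passed, of which 161 kept the call in every fit without 1 library and 166 under every other pseudocount, filter, scaling, tool and fit, stricter thresholds not counted. Without 1 library AT5G44440 ranged from -0.46 to 0.036 (without ZT9 replicate 1) and AT1G65490 from -0.20 to 0.13 (without ZT24 replicate 2, and 0.086 without ZT9 replicate 2), neither past the test. RVE2 (-0.48) and PIF7 (-0.54) passed it without ZT24 replicate 1. HSP17.6II lost its call without ZT9 replicate 1 (adjusted p = 0.113) and without ZT24 replicate 1 or 3 (0.0714 and 0.0811), CBF2 in the fit of 18 libraries (0.0967) and PIN5 with DESeq2 (0.0559). A minimum mean of 5 CPM, which tests fewer genes, left 4 flavonoid and 3 heat shock falls, 5 rises and 2 falls of auxin synthesis and transport genes, and 1 fall each of the photoperiodic flowering and of the Aux/IAA and GH3 genes.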

Other observations

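Of 7 root marker genes 1 rose and 2 fell in SOB3-D, beside 38.1% of all tested nuclear genes that moved, and of 4 shoot meristem genes tested 1 fell and none rose in limma, edgeR or DESeq2 (1 at an unadjusted p under 0.05). Transcripts of the mitochondrial genome summed to 712 to 762 CPM at ZT9 and to 693 to 1326 CPM at ZT24.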
